A study of Mus musculus with 2 samples.

Results

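The genes described here encode the RNA polymerases and the general transcription machinery of the mouse: the subunits of RNA polymerases I, II and III, the general transcription factors named Gtf2 and Gtf3, the TBP-associated factors (Tafs) and the Mediator subunits. Members were the protein-coding autosomal genes of the mm9 annotation whose symbol begins with Polr1, Polr2, Polr3, Gtf2 or Gtf3, or with Taf or Med followed by a digit. The rule uses symbols only and no measured value. It gave 97 genes out of 21278 autosomal protein-coding genes: 5 Polr1, 12 Polr2, 10 Polr3, 16 Gtf2, 7 Gtf3, 19 Taf and 28 Med genes. The 97 genes carry 99 gene identifiers, because Taf9 and Med20 each have a pair. The 5 genes Taf1, Taf7l, Taf9b, Med12 and Med14 meet the symbol rule but lie on the X chromosome and were left out.

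The samples were chromatin immunoprecipitations followed by sequencing (ChIP-seq) from wild-type mouse embryonic stem cells (mESCs), labelled E14, at passage P26 and of 129P2/OlaHsd background. Chromatin was precipitated with an antibody to Msl1 in 1 library and to Nsl1 in the other. Msl1 and Nsl1 are subunits that distinguish the MSL and NSL complexes, which share the histone acetyltransferase Mof, and the study asked where in the genome each complex sits. The deposited libraries held 23888517 reads of 50 bases for Msl1 and 26084098 reads of 36 bases for Nsl1. There was 1 library per antibody, so no test between conditions was possible. Every interval printed below is an exact 95% interval that covers counting error only. A range in parentheses after a median is not such an interval and gives the lowest and highest value. The libraries also differ in preparation kit, read length and fragment length (210 bases for Msl1 and 131 bases for Nsl1), so differences between Msl1 and Nsl1 cannot be told apart from differences between the libraries. No Input library was analysed here, and local background comes from each library itself.

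RNA polymerase I transcribes the large ribosomal RNA, polymerase II the messenger RNAs and polymerase III the transfer RNAs and other short RNAs. Each needs general factors to find its start sites: TBP with its Tafs in TFIID and the Gtf2 factors for polymerase II, TBP with other Tafs in SL1 for polymerase I, and the Gtf3 factors TFIIIA and TFIIIC for polymerase III. Mediator bridges activators and polymerase II, and a detachable kinase module regulates it. The core of this machinery is needed in every dividing cell.

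For each gene, reads within 500 bases of 1 transcription start site (TSS) were counted and divided, per kb, by the reads from 5 kb to 50 kb on both sides of it in the same library. This value is called the ratio over the local level below. Reads from 500 to 2000 bases downstream of the TSS, per kb, over those within 500 bases of it gave a downstream ratio. In 2 short members, Polr2i and Med11, that stretch runs past the end of the gene.

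Promoters with high Nsl1 ratios are shown first, so that the letters at the TSS can be seen beside the values below. Both sets were chosen by their Nsl1 ratio and by a motif searched over windows of unequal length, so no comparison of Nsl1 between them can be drawn. The first 5 lines are the members with the highest Nsl1 ratio among those that hold the letters CCGGAAG (the core of an ETS family recognition site) within the stretch printed, with those letters in capitals on either strand. In Gtf3c2 the letters occur on both strands and overlap. The next 3 lines are the members with the highest Nsl1 ratio among those without these letters anywhere from 250 bases before to 50 bases after the TSS, with GGGCGG (the core of an Sp1-type GC box) in capitals. Polr3b, whose Nsl1 ratio of 15.4 lies between those of Med6 and Med23, holds CCGGAAG in that wider window but not in the printed stretch and is in neither set. Each line runs 5′ to 3′ in the direction of the gene, from 60 bases before the TSS to 25 bases of the first exon, in the mm9 build.
Med6: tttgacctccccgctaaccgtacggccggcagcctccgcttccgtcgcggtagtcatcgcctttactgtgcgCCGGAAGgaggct
Taf1b: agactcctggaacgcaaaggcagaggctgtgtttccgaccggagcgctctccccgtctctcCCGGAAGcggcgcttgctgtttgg
Gtf2h2: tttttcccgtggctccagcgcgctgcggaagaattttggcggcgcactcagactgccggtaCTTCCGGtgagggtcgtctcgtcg
Polr2k: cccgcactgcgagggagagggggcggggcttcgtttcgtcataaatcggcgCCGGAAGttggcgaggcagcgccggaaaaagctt
Gtf3c2: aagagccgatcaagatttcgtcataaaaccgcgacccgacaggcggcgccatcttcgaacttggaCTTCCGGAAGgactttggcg
Gtf3c3: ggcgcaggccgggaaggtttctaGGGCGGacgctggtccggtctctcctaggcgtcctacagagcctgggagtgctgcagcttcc
Med23: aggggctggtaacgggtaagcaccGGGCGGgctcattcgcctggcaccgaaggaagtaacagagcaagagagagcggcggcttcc
Gtf2h3: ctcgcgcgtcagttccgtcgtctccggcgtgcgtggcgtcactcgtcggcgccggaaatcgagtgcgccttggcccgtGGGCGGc

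The stretches lie at chr12:82695969-82696053 on the minus strand (Med6), chr12:25183386-25183470 on the plus strand (Taf1b), chr13:101262510-101262594 on the minus strand (Gtf2h2), chr15:36103712-36103796 on the plus strand (Polr2k) and chr5:31482260-31482344 on the minus strand (Gtf3c2). Those of Gtf3c3, Med23 and Gtf2h3 lie at chr1:54495791-54495875 on the minus strand, chr10:24589732-24589816 on the plus strand and chr5:125029089-125029173 on the plus strand. Med6 encodes a subunit of the Mediator head, Taf1b a subunit of SL1, Gtf2h2 and Gtf2h3 subunits of TFIIH, Polr2k a small subunit found in all 3 polymerases, Gtf3c2 and Gtf3c3 subunits of TFIIIC, and Med23 a subunit of the Mediator tail.

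Nsl1 reads were concentrated at the TSSs of the members and Msl1 reads were at the level of other CpG-dense promoters. The median Nsl1 ratio was 4.07 over the 97 members (0.531 to 20.2), against 1.70 over the 21101 autosomal genes with local reads in both libraries. The median Msl1 ratio was 2.74 (0.538 to 6.29), against 1.83 over those genes. Promoters were called CpG-dense where the kb around the TSS had a GC content of at least 50% and an observed over expected CpG frequency of at least 0.6. This held for 81 of the 97 members (83.5%) and for 45.6% of the autosomal genes. Over the 9622 CpG-dense promoters the medians were 2.68 for Nsl1 and 2.81 for Msl1, so that the members' median was 4.07 against 2.68 for Nsl1 and 2.74 against 2.81 for Msl1.

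A ratio of at least 4 was reached by 50 members (51.5%) in the Nsl1 library, where 15.3% of the autosomal genes and 28.2% of the CpG-dense promoters reached it. In the Msl1 library 19 members (19.6%) reached it, where 9.70% of the autosomal genes and 18.9% of the CpG-dense promoters did. The share of members was above both backgrounds for Nsl1 and close to that of CpG-dense promoters for Msl1. Among the 81 CpG-dense members the shares were 53.1% for Nsl1 and 18.5% for Msl1. Both ratios were at least 4 in 12 members, where 3.86% of the autosomal genes had both, and 40 members (41.2%) reached 4 for neither, against 78.9% of the autosomal genes and 60.5% of the CpG-dense promoters. A ratio of 4 was reached for Nsl1 only by 38 members (39.2%), against 11.4% and 20.6% in these backgrounds, and for Msl1 only by 7 members (7.22%), against 5.83% and 11.4%. The interval lay above 1 in 89 members for Nsl1 (91.8%), against 50.8% of the autosomal genes and 78.0% of the CpG-dense promoters. For Msl1 it did so in 84 members (86.6%), against 53.0% and 86.3%, so that the Msl1 share was that of CpG-dense promoters. The counts behind these ratios were a median of 56 reads for Nsl1 (8 to 208) and 35 for Msl1 (5 to 76).

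The Nsl1 ratio exceeded the Msl1 ratio in 72 of the 97 members (74.2%), in 52.3% of the autosomal genes and in 51.0% of the CpG-dense promoters. With counting intervals that did not overlap, Nsl1 was higher in 41 members (42.3%), against 10.7% of the autosomal genes and 18.3% of the CpG-dense promoters. Msl1 was higher in 5 members (5.15%), namely Gtf2h1, Med7, Med12l, Med13 and Med13l, against 6.0% and 11.7%, a share no larger than the background. Across the 97 members Spearman's rho between the ratios was 0.31, and over 20481 autosomal genes it was 0.60. These are descriptions across genes that share libraries, depth and base composition, and genes are not replicates.

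**Figure D1:**
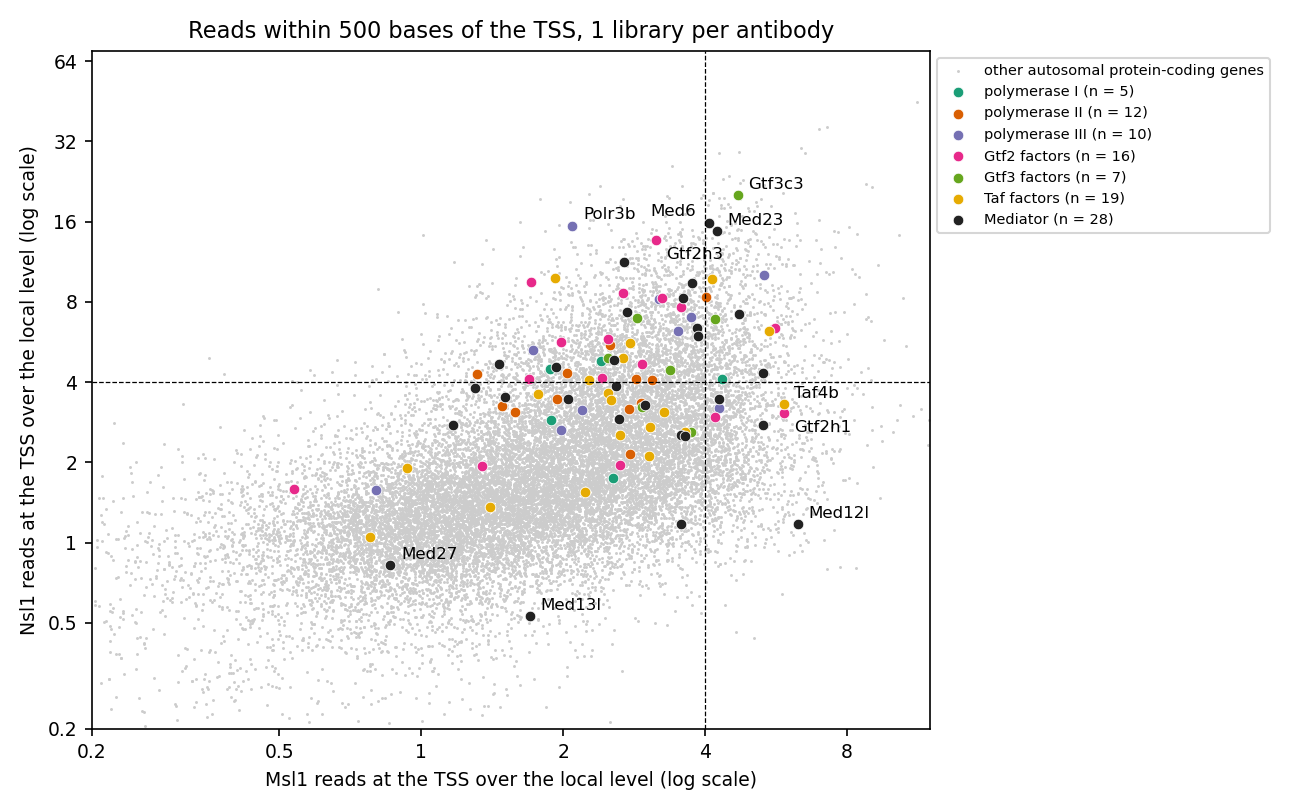
Msl1 ratio (horizontal, log scale) against Nsl1 ratio (vertical, log scale) within 500 bases of the TSS, for the 97 members coloured by group and for 20214 other autosomal genes in grey (790 lie outside the axes). Dashed lines mark 4 times the local level. Gtf3c3, Med6, Polr3b, Med23 and Gtf2h3 lie at the top, Med12l lies farthest right at a Nsl1 ratio near the local level, and Med13l lies lowest.

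The position of the reads differed between the libraries. Summed over the members, Nsl1 coverage was highest from 50 bases before the TSS to the TSS, at 9.26 times the local level, and stayed above the middle of its range over 400 bases. Msl1 coverage was highest from 200 to 250 bases into the gene, at 4.14 times the local level, and stayed above the middle of its range over 750 bases. Msl1 coverage dipped just before the TSS, and a lower rise lay upstream of the dip. Over the CpG-dense promoters the highest coverage was 5.07 for Nsl1 and 4.44 for Msl1, so that the members' summed curve stood above theirs for Nsl1 and slightly below it for Msl1.

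**Figure D2:**
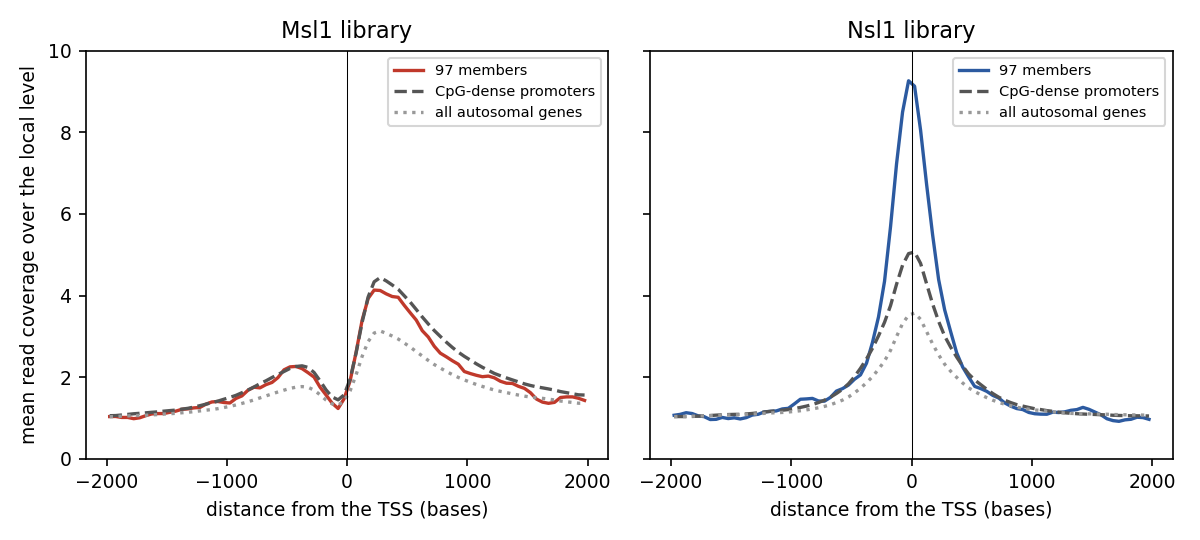
Mean read coverage over the local level (vertical) by distance from the TSS in bases (horizontal; positive values lie within the gene) for the Msl1 library (left) and the Nsl1 library (right). Solid lines are the 97 members, dashed lines the CpG-dense promoters and dotted lines all autosomal genes. The Nsl1 curve of the members is a narrow rise to 9.26 at the TSS and the Msl1 curve a broad rise to 4.14 inside the gene.

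Step by step, Nsl1 reads of the members stood at 4.82 times the local level from 500 bases upstream to the TSS (interval 4.66 to 4.99), at 4.70 in the first 500 bases of the gene (4.54 to 4.87) and at 1.43 in the next 500 bases (1.34 to 1.52). Msl1 reads stood at 1.81 (1.71 to 1.92), 3.62 (3.48 to 3.77) and 2.79 (2.67 to 2.93) over the same steps. From 1000 to 2000 bases into the gene Msl1 was still at 1.68 (1.61 to 1.76) and Nsl1 at 1.08 (1.02 to 1.13). Nsl1 was thus close to the local level from 1000 to 2000 bases, with an interval still just above 1. The reads of Taf11 are part of this: it held 123 Nsl1 reads from 500 to 2000 bases. From 2000 to 5000 bases Nsl1 stood at 0.963 (0.933 to 0.994), just below the local level. Msl1 fell off more slowly and stood at 1.19 there (1.16 to 1.23).

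Pooled over the members, the Msl1 downstream ratio was 0.756 (0.722 to 0.791) and the Nsl1 downstream ratio 0.251 (0.239 to 0.263). Over all autosomal genes it was 0.837 and 0.481, and over CpG-dense promoters 0.805 and 0.367. Msl1 had the higher downstream ratio in 84 of the 97 members (86.6%), in 65.8% of the autosomal genes with reads at the TSS and in 77.2% of such CpG-dense promoters. The Msl1 downstream ratio exceeded 1 in 27 members (27.8%), near the 30.2% of CpG-dense promoters and below the 36.2% of autosomal genes. The Nsl1 downstream ratio exceeded 1 in 3 members (3.09%), against 11.1% and 24.4%, namely Taf11 (2.34), Med13l (1.75) and Med13 (1.02). Polr2a, which encodes the catalytic subunit of polymerase II, had a Msl1 downstream ratio of 1.90 and a Nsl1 downstream ratio of 0.30. Of the Msl1 reads within 500 bases of the TSS 66.7% lay inside the gene (65.1 to 68.2), and of the Nsl1 reads 49.4% (48.1 to 50.6).

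Many members share their promoter with a neighbour. A TSS of another gene on the opposite strand, at most 1 kb upstream or at most 100 bases inside the gene, was annotated for 33 members (34.0%), for 12.3% of the autosomal genes and for 22.1% of the CpG-dense promoters. It lay upstream in 31 of the members and inside the gene in 2, at position 17 in Polr3c (Rnf115) and 81 in Polr2h (Clcn2). At these 33 members the Msl1 reads upstream of the TSS stood at 2.58 times the local level (2.38 to 2.80), and at the other 64 members at 1.39 (1.28 to 1.51). The share of Msl1 TSS reads inside the gene was 56.1% with such a neighbour (53.5 to 58.8) and 73.2% without (71.3 to 75.1). For Nsl1 the shares were 48.0% and 50.1%, with overlapping intervals. The upstream Msl1 reads were thus higher at members with an annotated neighbour. The Nsl1 reads lay on both sides of the TSS with or without a neighbour. The sets also differ in composition, with a median GC content of 61.7% with such a neighbour and 56.3% without. Upstream Msl1 reads stood at 1.92 times the local level (1.81 to 2.05) at CpG-dense members. At members without a CpG-dense promoter they stood at 1.23 (1.02 to 1.46). The part of the neighbour apart from composition was not tested.

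**Figure D3:**
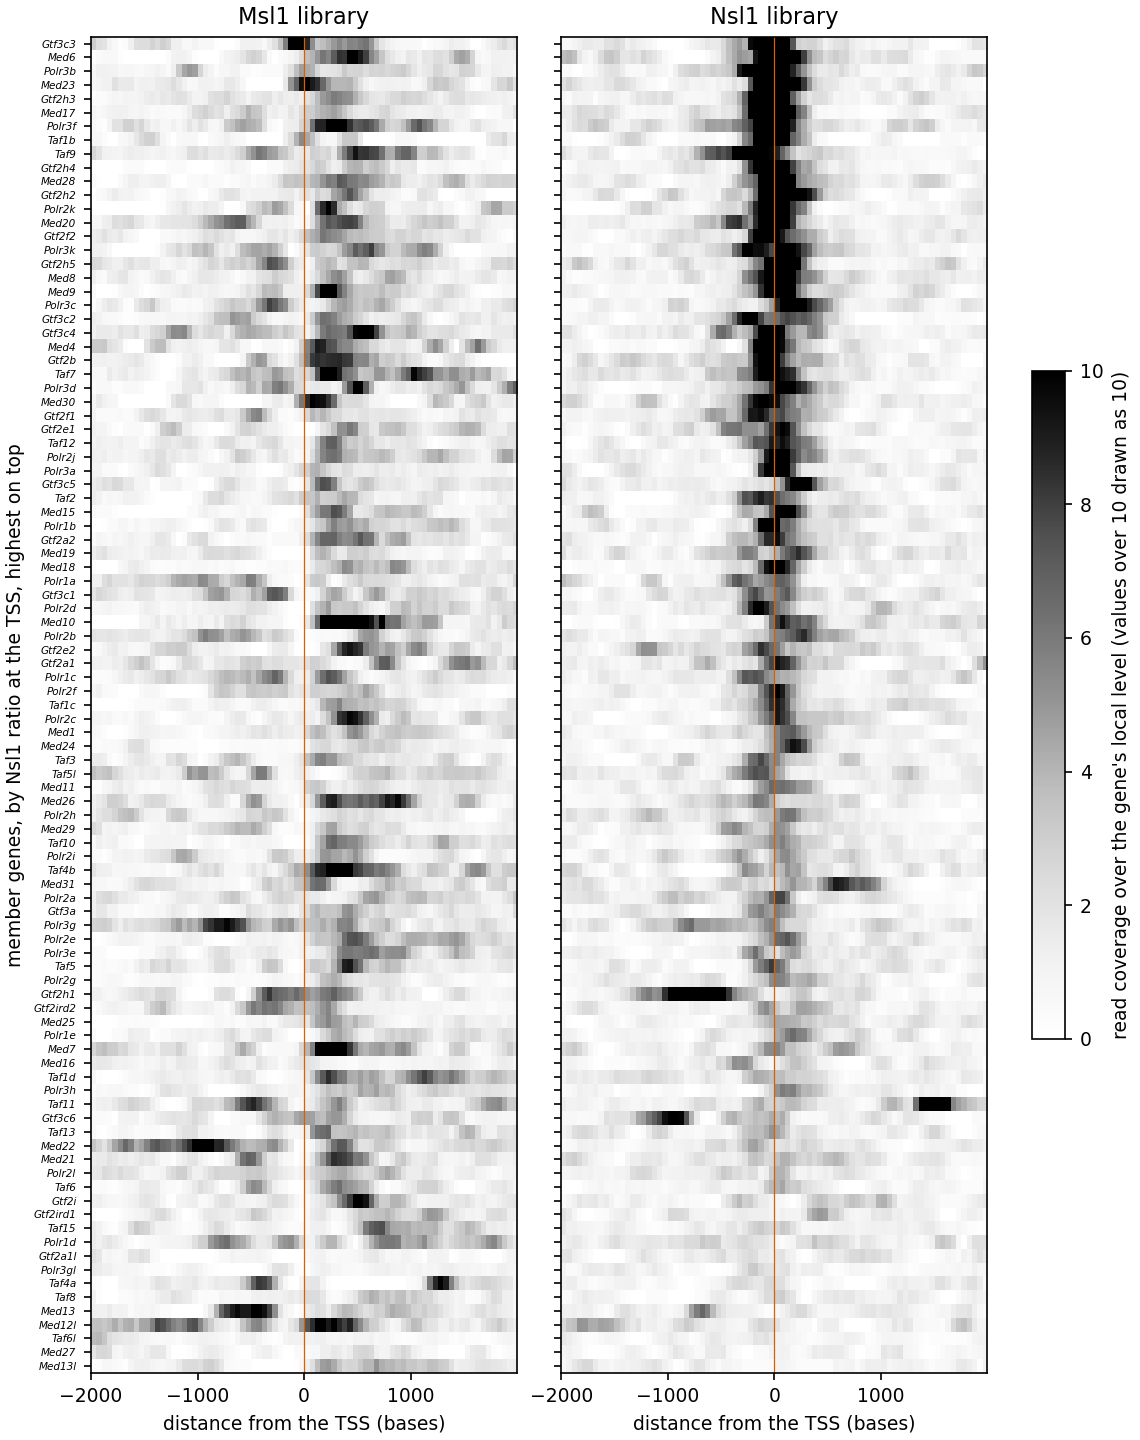
Read coverage over each gene's local level (grey scale, values over 10 drawn as 10) by distance from the TSS in bases, for the Msl1 library (left) and the Nsl1 library (right). Each line is 1 of the 97 members, ordered by Nsl1 ratio with the highest on top. Nsl1 reads form a column at the TSS in the upper part and Msl1 reads lie mostly to its right, while Gtf2h1, Gtf3c6 and Taf11 carry their Nsl1 reads away from the TSS.

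Gene by gene, the highest 50-base stretch of Nsl1 coverage lay within 250 bases of the TSS in 79 members (81.4%), where this held for 56.1% of the CpG-dense promoters. The highest Msl1 stretch lay within 250 bases in 24 members (24.7%) and from 250 to 1000 bases into the gene in 52 (53.6%), shares close to the 24.5% and 53.9% of CpG-dense promoters. The exceptions for Nsl1 include 3 strong ones. In Taf11, which encodes a histone-fold subunit of TFIID, Nsl1 coverage rose to 28.6 times the local level from 1450 to 1500 bases into the gene, and another annotated TSS of Taf11 lies 1518 bases in. In Gtf2h1, a TFIIH subunit, Nsl1 coverage rose to 24.5 times from position -850 to -800, upstream of the TSS and 35 bases from an annotated TSS of its neighbour Hps5. In Gtf3c6, a TFIIIC subunit, it rose to 11.2 times from position -950 to -900, and the nearest annotated TSS is that of a U3 small nucleolar RNA gene at position -802. The low Nsl1 ratios of these 3 members within 500 bases of the TSS used (2.60 for Taf11, 3.06 for Gtf2h1 and 2.60 for Gtf3c6) therefore leave out nearby Nsl1 reads.

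The polymerase I genes had medians of 4.11 for Nsl1 and 2.40 for Msl1 over 5 genes, and 3 of the 5 reached 4 for Nsl1 and 1 for Msl1. Polr1a, the largest catalytic subunit of polymerase I, held 55 Nsl1 reads and 26 Msl1 reads within 500 bases of the TSS. Its Nsl1 ratio was 4.48 (3.36 to 5.88) and its Msl1 ratio 1.87 (1.22 to 2.76), with intervals that did not overlap. Polr1b, the second-largest subunit, held 67 Nsl1 reads and 30 Msl1 reads, with ratios of 4.80 (3.69 to 6.14) and 2.40 (1.61 to 3.45). Both large subunits of polymerase I thus stood higher for Nsl1 than for Msl1 in this window. The highest Nsl1 coverage of Polr1a lay upstream, at positions -350 to -300. That is 34 bases from an annotated TSS of its neighbour Ptcd3, at position -291 on the opposite strand.

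Polr1c and Polr1d encode subunits that polymerases I and III have in common. Polr1c held 60 Nsl1 reads and 70 Msl1 reads, with ratios of 4.11 (3.12 to 5.32) and 4.35 (3.37 to 5.53), the highest Msl1 ratio among the polymerase I genes. Polr1d held 24 Nsl1 reads and 29 Msl1 reads, with ratios of 1.74 (1.11 to 2.61) and 2.55 (1.70 to 3.68). In both genes the Nsl1 and Msl1 intervals overlapped, and Polr1d had the lowest Nsl1 ratio of the group.

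The polymerase II genes had medians of 3.76 for Nsl1 and 2.64 for Msl1 over 12 genes, and 6 reached 4 for Nsl1 and 1 for Msl1. Polr2a held 69 Nsl1 reads and 32 Msl1 reads, with ratios of 3.25 (2.52 to 4.13) and 1.48 (1.01 to 2.10). Polr2b, the second-largest subunit, held 62 Nsl1 reads and 26 Msl1 reads, with ratios of 4.29 (3.27 to 5.54) and 1.31 (0.856 to 1.93). Within 500 bases of the Polr2b TSS Msl1 was therefore not above the local level beyond counting error, while Nsl1 was. From 500 to 2000 bases Msl1 stood at 2.09 times the local level (1.59 to 2.69) from 62 reads, so Msl1 reads were present at this gene outside the window. The highest Msl1 coverage, 5.86 times the local level, lay upstream of Polr2b, at positions -950 to -900. That is on the side of its neighbour 2610024G14Rik, which has an annotated TSS at position -63 on the opposite strand. Polr2k held 92 Nsl1 reads and 28 Msl1 reads, with ratios of 8.36 (6.67 to 10.4) and 4.03 (2.65 to 5.88), the highest of the group in both libraries.

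Among the smaller polymerase II subunits, Polr2j held 80 Nsl1 reads and 35 Msl1 reads and had ratios of 5.50 (4.34 to 6.90) and 2.51 (1.74 to 3.52). Polr2c, a subunit of the assembly platform, held 56 Nsl1 reads and 37 Msl1 reads, with ratios of 4.06 (3.05 to 5.31) and 3.09 (2.16 to 4.29). Polr2g, a stalk subunit, held 52 Nsl1 reads and 37 Msl1 reads, with ratios of 3.09 (2.29 to 4.07) and 1.58 (1.11 to 2.19), the lowest sum of the group. Over the 7 subunits found only in polymerase II the pooled Nsl1 ratio was 3.91 (3.54 to 4.31) and the pooled Msl1 ratio 2.01 (1.77 to 2.29). The 5 subunits that all 3 polymerases share, Polr2e, Polr2f, Polr2h, Polr2k and Polr2l, stood at 3.92 for Nsl1 (3.48 to 4.40) and 2.71 for Msl1 (2.35 to 3.10). The pooled Nsl1 intervals of these sets overlapped, and the pooled Msl1 interval of the shared subunits lay above that of the others. Pooled intervals do not cover the spread between genes. Gene by gene the Msl1 ratios overlapped, from 1.94 to 4.03 in the shared subunits and from 1.31 to 3.09 in the others.

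The polymerase III genes had the highest Nsl1 median of the 3 polymerases, 5.75 over 10 genes, beside a Msl1 median of 2.69. A Nsl1 ratio of at least 4 was reached by 6 genes and a Msl1 ratio of at least 4 by 2. Polr3b, the second-largest subunit, held 187 Nsl1 reads and 27 Msl1 reads, with ratios of 15.4 (13.2 to 18) and 2.09 (1.37 to 3.06). Polr3a, the largest subunit, held 66 Nsl1 reads and 23 Msl1 reads, with ratios of 5.29 (4.06 to 6.78) and 1.72 (1.09 to 2.60). Polr3f, a subunit that takes part in initiation, held 117 Nsl1 reads and 40 Msl1 reads, with ratios of 10.1 (8.24 to 12.2) and 5.33 (3.77 to 7.33). All 3 stood higher for Nsl1 with intervals apart.

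Polr3g and Polr3gl encode alternative forms of a single polymerase III subunit, of which Polr3g is the form known from embryonic stem cells. Polr3g held 32 Nsl1 reads and 41 Msl1 reads, with ratios of 3.19 (2.17 to 4.53) and 4.29 (3.05 to 5.86). Polr3gl held 29 Nsl1 reads and 16 Msl1 reads, with ratios of 1.58 (1.05 to 2.27) and 0.801 (0.457 to 1.30). The Msl1 intervals of the forms were apart and the Nsl1 intervals overlapped. Polr3g has a neighbour, Mblac2, with a TSS at position -404 on the opposite strand, and 48.8% of its Msl1 TSS reads lay inside the gene. Its highest coverage lay on the side of Mblac2, at positions -750 to -700 for Msl1 and -800 to -750 for Nsl1. Polr3gl has no such neighbour and, unlike Polr3g, no CpG-dense promoter. The part of the neighbour and of composition in this difference was not tested. Msl1 reads at Polr3gl did not exceed the local level.

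**Figure D4:**
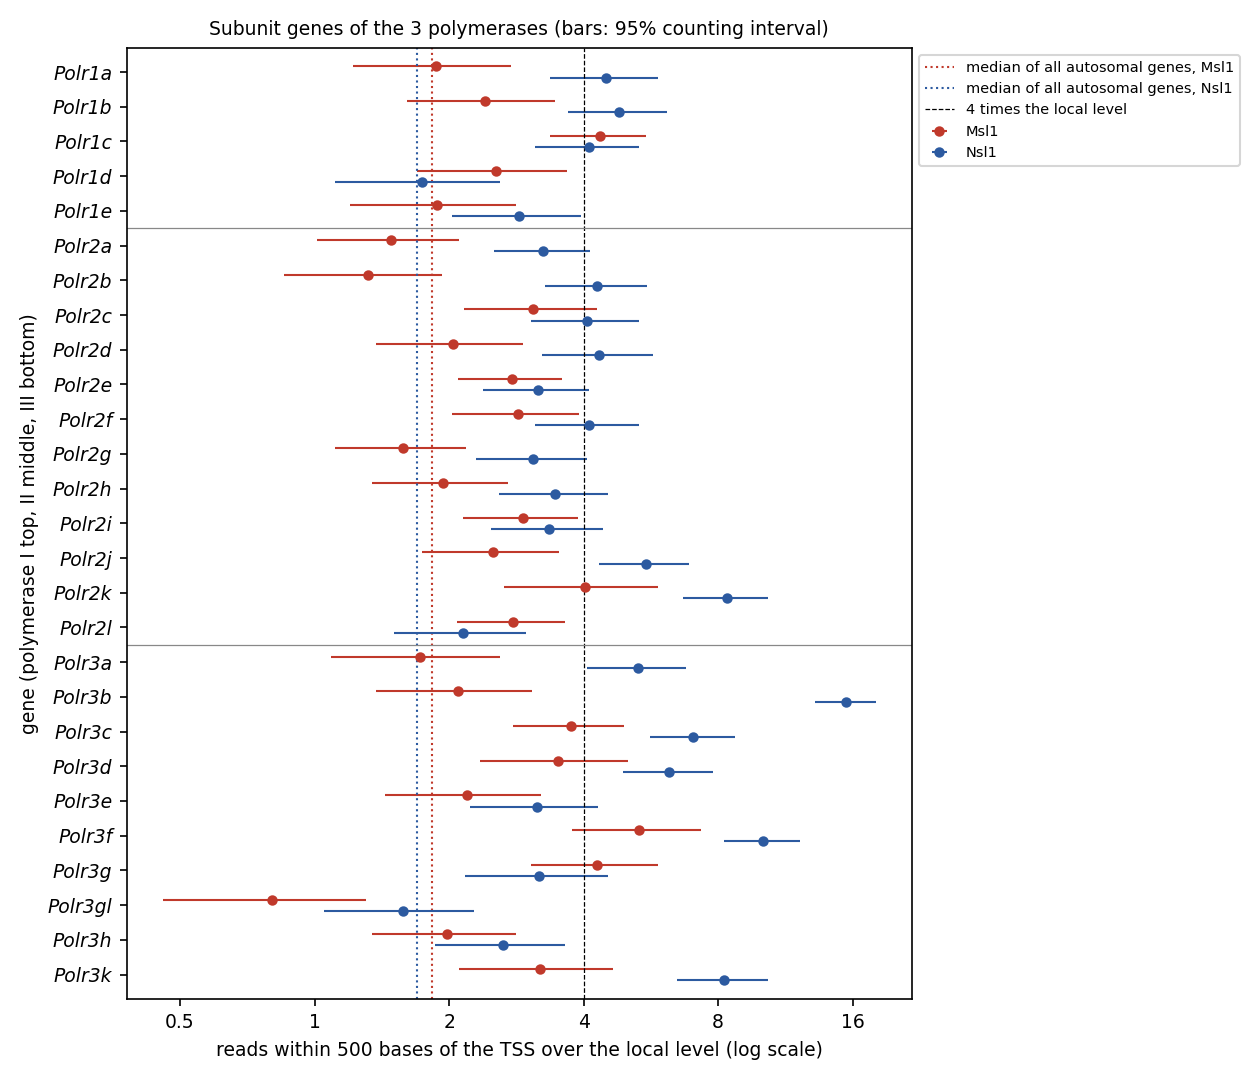
Ratio over the local level within 500 bases of the TSS (horizontal, log scale) for each subunit gene of polymerase I (top), II (middle) and III (bottom), with 95% counting intervals as bars. Red is Msl1 and blue is Nsl1, dotted lines are the medians of all autosomal genes and the dashed line marks 4. The Nsl1 point lies to the right of the Msl1 point for most genes and farthest for Polr3b, and the order is turned for Polr1c, Polr1d, Polr2l and Polr3g.

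The Gtf2 genes had medians of 5.17 for Nsl1 and 2.66 for Msl1 over 16 genes, and 11 reached 4 for Nsl1 (68.8%) and 3 for Msl1 (18.8%). The CpG-dense promoters had 28.2% and 18.9%. TFIIH, which opens the promoter and phosphorylates polymerase II, stood highest of the Gtf2 factors for Nsl1. Over its 5 member genes the pooled Nsl1 ratio was 8.82 (8.08 to 9.61) and the pooled Msl1 ratio 3.23 (2.77 to 3.73). Gtf2h3 held 208 Nsl1 reads and 46 Msl1 reads, with ratios of 13.7 (11.8 to 15.8) and 3.14 (2.29 to 4.22). Gtf2h4 held 151 Nsl1 reads and 23 Msl1 reads, with ratios of 9.51 (7.99 to 11.3) and 1.71 (1.08 to 2.58). Gtf2h1 went the other way within 500 bases of its TSS, with 37 Nsl1 reads and 51 Msl1 reads and ratios of 3.06 (2.14 to 4.25) and 5.88 (4.34 to 7.82), but its Nsl1 reads lay upstream, as given above.

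Gtf2b encodes TFIIB, which links TBP at the promoter to polymerase II. It held 68 Nsl1 reads and 55 Msl1 reads, and its ratios of 6.38 (4.91 to 8.16) and 5.64 (4.21 to 7.41) were above 4 in both libraries with overlapping intervals. The pooled Nsl1 ratios were 4.44 for TFIIA (3.63 to 5.38; Gtf2a1 and Gtf2a2), 4.92 for TFIIE (4.01 to 5.97; Gtf2e1 and Gtf2e2) and 6.86 for TFIIF (5.88 to 7.96; Gtf2f1 and Gtf2f2). The Msl1 values were 2.33 (1.73 to 3.08), 2.18 (1.59 to 2.92) and 2.81 (2.18 to 3.57). In these 3 factors the pooled Nsl1 ratio thus stood above the pooled Msl1 ratio with intervals apart.

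Some genes that carry the Gtf2 name are not part of the basal machinery, and they stood lower for Nsl1. Gtf2a1l encodes a germ-cell relative of a TFIIA subunit and held 19 Nsl1 reads and 5 Msl1 reads, with ratios of 1.58 (0.95 to 2.49) and 0.538 (0.174 to 1.26). Neither library exceeded the local level there. Gtf2i, Gtf2ird1 and Gtf2ird2, neighbouring genes on chromosome 5 that encode the TFII-I family of DNA-binding proteins, stood at a pooled 2.29 for Nsl1 (1.85 to 2.80) and 2.67 for Msl1 (2.21 to 3.20). None of the 3 reached 4 for Nsl1.

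The Gtf3 genes had medians of 4.93 for Nsl1 and 3.38 for Msl1 over 7 genes, and 5 reached 4 for Nsl1 (71.4%) and 2 for Msl1 (28.6%). Beside these, 28.2% and 18.9% of the CpG-dense promoters reached 4. Gtf3c3 had the highest Nsl1 ratio of all members, 20.2 (17.2 to 23.6) from 197 reads, beside a Msl1 ratio of 4.69 (3.34 to 6.42) from 41 reads. Gtf3c4 held 89 Nsl1 reads and 54 Msl1 reads, with ratios of 6.89 (5.49 to 8.55) and 4.20 (3.13 to 5.51). Gtf3c2 held 112 Nsl1 reads and 49 Msl1 reads, with ratios of 6.99 (5.71 to 8.47) and 2.87 (2.11 to 3.81). Pooled over the 6 TFIIIC genes, which encode the factor that recognises the internal promoters of transfer RNA genes, Nsl1 stood at 7.21 (6.60 to 7.86) and Msl1 at 3.47 (3.06 to 3.93). Gtf3c3 held 197 of their 551 Nsl1 reads, and their median Nsl1 ratio was 5.91. Gtf3a, which encodes TFIIIA, the factor for 5S ribosomal RNA genes, held 51 Nsl1 reads and 34 Msl1 reads, with overlapping ratios of 3.22 (2.39 to 4.26) and 2.94 (2.03 to 4.14).

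The Taf genes had the lowest Nsl1 median of the groups, 3.30 over 19 genes, with 2.63 for Msl1, and 6 reached 4 for Nsl1 and 3 for Msl1. For Nsl1, 6 of 19 is 31.6%, near the 28.2% of CpG-dense promoters, and for Msl1, 3 of 19 is 15.8%, near their 18.9%. Taf1b held 102 Nsl1 reads and 15 Msl1 reads, with ratios of 9.83 (7.93 to 12.1) and 1.93 (1.07 to 3.20). Taf9, which is found in TFIID and in the SAGA coactivator, held 109 Nsl1 reads and 51 Msl1 reads, with ratios of 9.74 (7.92 to 11.9) and 4.14 (3.06 to 5.48). Both stood higher for Nsl1 with intervals apart. Of the Taf9 Nsl1 reads within 500 bases of the TSS, 21.1% lay inside the gene (13.9 to 30.0). Their highest coverage lay at positions -250 to -200, and the neighbour Rad17 has an annotated TSS at position -284 on the opposite strand. Taf7, a TFIID subunit encoded on chromosome 18, held 73 Nsl1 reads and 53 Msl1 reads, with ratios of 6.24 (4.85 to 7.91) and 5.46 (4.06 to 7.2).

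Several Tafs have a close relative, and the pairs can be set side by side. Taf4a, a core TFIID scaffold, held 21 Nsl1 reads and 30 Msl1 reads, with ratios of 1.54 (0.952 to 2.37) and 2.22 (1.49 to 3.19). Its relative Taf4b held 30 Nsl1 reads and 46 Msl1 reads, with ratios of 3.30 (2.21 to 4.74) and 5.88 (4.27 to 7.93). The Msl1 intervals of Taf4a and Taf4b were apart within 500 bases of the TSS used. The highest Msl1 coverage of Taf4a, 9.93 times the local level, lay outside that window, from 1250 to 1300 bases into the gene. Another annotated TSS of Taf4a lies 1087 bases in. The highest Msl1 coverage of Taf4b, 12.7 times, lay inside the window, from 350 to 400 bases. Taf6, a TFIID subunit, stood at 2.11 for Nsl1 (1.45 to 2.97) and 3.04 for Msl1 (2.17 to 4.14). Taf6l, its relative in SAGA, held 20 Nsl1 reads and 17 Msl1 reads and had ratios of 1.05 (0.637 to 1.62) and 0.780 (0.453 to 1.25), so that neither library exceeded the local level.

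The Mediator genes had medians of 3.83 for Nsl1 and 3.26 for Msl1 over 28 genes, and 13 reached 4 for Nsl1 and 7 for Msl1. The modules of the complex were assigned from textbook knowledge after the values were known. Nsl1 ratios of single genes ran from 2.52 to 15.9 in the head, 2.51 to 7.22 in the middle and 2.76 to 14.8 in the tail. These ranges overlapped, and that of the 3 kinase module genes, 0.531 to 1.18, lay below them. The pooled intervals of the modules do not cover this spread between genes. Med19, Med26, Med27, Med28, Med29 and Med30 were put in no module, and had Nsl1 ratios of 4.67, 3.46, 0.825, 9.41, 3.45 and 5.94. The 7 head genes Med6, Med8, Med11, Med17, Med18, Med20 and Med22 stood at a pooled 7.09 for Nsl1 (6.56 to 7.65) and 2.75 for Msl1 (2.43 to 3.11). Med6 held 171 Nsl1 reads and 36 Msl1 reads, with ratios of 15.9 (13.4 to 18.7) and 4.08 (2.84 to 5.7). The 5 tail genes Med15, Med16, Med23, Med24 and Med25 stood at a pooled 5.0 for Nsl1 (4.52 to 5.53) and 2.09 for Msl1 (1.77 to 2.44). Med23 held 158 of their 408 Nsl1 reads. The median Nsl1 ratio of the tail genes was 3.81, and 2 of the 5 reached 4. Med23 stood at 14.8 for Nsl1 (12.4 to 17.5) and, from 38 reads, at 4.24 for Msl1 (2.98 to 5.87). In both modules the pooled Nsl1 ratio lay above the pooled Msl1 ratio with intervals apart.

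The 7 middle genes Med1, Med4, Med7, Med9, Med10, Med21 and Med31 were closer between the libraries, at 4.50 for Nsl1 (4.09 to 4.94) and 3.78 for Msl1 (3.37 to 4.22). Med7 held 40 Nsl1 reads and 51 Msl1 reads, with ratios of 2.76 (1.97 to 3.79) and 5.31 (3.92 to 7.05), intervals apart. Med1, the subunit contacted by nuclear receptors, held 69 Nsl1 reads and 57 Msl1 reads, with overlapping ratios of 3.86 (2.99 to 4.91) and 2.58 (1.95 to 3.36). Med27 had the lowest sum of all Mediator genes, with 11 Nsl1 reads and 10 Msl1 reads and ratios of 0.825 (0.411 to 1.48) and 0.860 (0.411 to 1.59). Neither library was above the local level at the TSS used for Med27, a gene with 6 annotated TSSs.

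The 3 autosomal Med genes of the kinase module, Med12l, Med13 and Med13l, were turned the other way, though the module's kinase and cyclin genes, given below, were not all so. They stood at a pooled 0.946 for Nsl1 (0.675 to 1.29) and 3.44 for Msl1 (2.88 to 4.09). Med12l held 13 Nsl1 reads and 55 Msl1 reads, and its Msl1 ratio of 6.29 (4.70 to 8.27) was the highest of all members beside a Nsl1 ratio of 1.17 (0.623 to 2.02). Med13 held 19 Nsl1 reads and 53 Msl1 reads, with ratios of 1.18 (0.706 to 1.84) and 3.56 (2.65 to 4.69). Med13l held 8 Nsl1 reads and 26 Msl1 reads, with ratios of 0.531 (0.229 to 1.05) and 1.70 (1.11 to 2.50). Within 500 bases of the TSS Msl1 was above the local level beyond counting error in all 3 genes and Nsl1 was not. They are 3 of the 5 members with a Msl1 interval above the Nsl1 interval. Their GC contents around the TSS were 67.8%, 68.1% and 76.6%, against a median of 57.8% over the members. The part of GC content was not tested. Nsl1 coverage farther out rose to 6.69 times the local level at positions -700 to -650 of Med13 and to 5.05 times at positions -1850 to -1800 of Med12l.

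A direct comparison took Msl1 over Nsl1 reads within 2 kb of the TSS, each per read of its own library. The 95 members whose summed reads of the libraries came to at least 100 had a median of 1.23, against 1.28 over 14383 autosomal genes and 1.41 over CpG-dense promoters. Within 500 bases of the TSS the same 95 members had a median of 0.728, on the other side of 1, against 1.08 and 1.13, so the members' direction depended on the window. A value of at least 2 was found in 11 members (11.6%), where 12.8% of the autosomal genes had it. A value of at most 0.5 was found in 5 members (5.26%), where 1.46% of the autosomal genes had it. Among the members with a CpG-dense promoter the shares were 13.6% at the high end and 1.23% at the low end (1 of 81), against 17.6% and 1.41% of all CpG-dense promoters, so neither end held more of them than the background. The other low values were 4 of the 14 counted members without a CpG-dense promoter (28.6%), where 1.56% of the genes without one had such a value. A value of at least 2 was found in 0 of these 14, where 3.85% of the genes without a CpG-dense promoter had it. These sets differ in composition: the median observed over expected CpG frequency was 0.542 over all 16 members without such a promoter. Over all autosomal genes without one it was 0.249. The lowest values were 0.325 in Taf1b (0.210 to 0.488), 0.335 in Gtf2h4 (0.242 to 0.457) and 0.443 in Med6 (0.337 to 0.578), and the other values of at most 0.5 belonged to Gtf3c3 (0.448) and Med23 (0.494).

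The highest values were 3.47 in Med22 (2.68 to 4.53), 2.58 in Med13l (1.86 to 3.6) and 2.53 in Taf4a (1.8 to 3.6). Med22, a head subunit, shares its promoter with the ribosomal protein gene Rpl7a, which starts at position -87 on the opposite strand, and its highest Msl1 coverage, 10.5 times the local level, lay at positions -950 to -900 on the side of Rpl7a. Within 500 bases of its TSS the Med22 ratios were 2.52 for Nsl1 (1.76 to 3.51) and 3.55 for Msl1 (2.61 to 4.72). In Taf4a the highest Msl1 coverage, 9.93 times the local level, lay from 1250 to 1300 bases into the gene. High values of Msl1 over Nsl1 thus came in part from reads outside the 500 bases around the TSS.

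Base composition moved with these values. Spearman's rho between Msl1 over Nsl1 and the GC content of the kb around the TSS was 0.51 across the 97 members and 0.50 across autosomal genes. Between the Nsl1 ratio and GC content it was -0.20 across members and 0.38 across autosomal genes. The 16 members without a CpG-dense promoter included Gtf3c3 and Med6, with the highest Nsl1 ratios of all, as well as Gtf2h4, Taf1b and Polr2k. They also included low members such as Gtf2a1l, Polr3gl, Taf6l and Med27. Their median Nsl1 ratio was 3.45 (0.825 to 20.2), and 7 of 16 reached 4 (43.8%), where the autosomal genes without a CpG-dense promoter had a median of 1.28 and 4.44% of them reached 4. For Msl1 the median of the 16 members was 1.90 and 4 of 16 reached 4 (25%), against 1.21 and 1.95% of those genes. The median observed over expected CpG frequency was 0.542 in the 16 members and 0.249 in those genes, so the sets differ in composition within this class. The part of base composition in these values was not tested.

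Finally, 8 short motifs were searched on both strands from 250 bases before to 50 bases after the TSS. CCGGAAG was present in 37 members (38.1%), in 11% of the autosomal genes and in 19.1% of the CpG-dense promoters. Members with it had a median Nsl1 ratio of 4.57 and 27 of 37 reached 4 (73.0%), and members without it had a median of 3.39 and 23 of 60 reached 4 (38.3%). A ratio of 4 was reached by 52.3% of the autosomal genes with it and 10.7% of those without it, and by 57.6% and 21.3% of the CpG-dense promoters. Over the autosomal genes the Nsl1 medians were 4.12 with it and 1.58 without it, and over the CpG-dense promoters 4.41 and 2.36. For Msl1 the members' medians were 2.74 and 2.70. Over the autosomal genes the Msl1 medians were 2.80 with it and 1.71 without it, and over the CpG-dense promoters 3.03 and 2.75. A higher Nsl1 median with the motif was thus seen in the members as in the background, and a higher Msl1 median in the background as well. By group it was present in 6 of 12 polymerase II, 4 of 7 Gtf3, 9 of 19 Taf, 9 of 28 Mediator, 5 of 16 Gtf2, 3 of 10 polymerase III and 1 of 5 polymerase I genes.

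GGGCGG was present in 68.0% of members, 44.6% of autosomal genes and 73.4% of CpG-dense promoters. Members with it had a lower median Nsl1 ratio (3.46) than members without it (4.67), and their Msl1 medians were 2.77 and 2.68. Over CpG-dense promoters the Nsl1 median was also lower with it (2.48 against 3.40), while over all autosomal genes it was higher (2.24 against 1.37). AAGATGGC, the core of a YY1-type site, was present in 12.4% of members, 3.38% of autosomal genes and 4.83% of CpG-dense promoters. TGACGT, part of a cyclic AMP response element, was present in 16.5%, 8.58% and 13.1%. GCATGCGC, the core of an NRF1 site, was present in 8.25%, 3.39% and 6.11%, and CTCGCGAG in 1.03%, 1.16% and 2.33%. CCAAT was present in 32% of members, 37.4% of autosomal genes and 37.3% of CpG-dense promoters. TATAAA was present in 12.4% of members, near the 13.5% of autosomal genes and above the 5.58% of CpG-dense promoters. These are matches of letters within the window, not measured binding sites.

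The machinery also has parts whose symbols fall outside the rule, and 26 such partners were listed. Their median Nsl1 ratio was 4.79 and 19 reached 4 (73.1%), where 15.3% of the autosomal genes and 28.2% of the CpG-dense promoters did. Their median Msl1 ratio was 2.90 and 5 reached 4 (19.2%), against 9.70% and 18.9%, and 24 of the 26 had a CpG-dense promoter. Tbp, which encodes the TATA-binding protein used by all 3 polymerases, held 150 Nsl1 reads and 42 Msl1 reads, with ratios of 12.7 (10.6 to 15.1) and 3.30. Brf2, a polymerase III initiation factor, held 181 Nsl1 reads and 47 Msl1 reads, with ratios of 11.2 (9.58 to 13.1) and 2.72. Of the TFIIH partners, Cdk7, Ccnh, Mnat1 and Ercc3 had Nsl1 ratios of 6.77, 6.76, 7.94 and 7.68, and Ercc2 had 3.62. Ubtf, the polymerase I activator that binds ribosomal DNA, was at the local level for Nsl1, with 22 reads and a ratio of 0.990 (0.619 to 1.5), and had a Msl1 ratio of 2.90 from 61 reads.

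The kinase-module partners Cdk8, Cdk19 and Ccnc had Nsl1 ratios of 4.11, 2.25 and 6.45 and Msl1 ratios of 2.21, 3.96 and 4.11. All 3 Nsl1 ratios, including that of Cdk19 (1.46 to 3.31), were above the local level beyond counting error, unlike those of Med12l, Med13 and Med13l.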

How the data were processed

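Per the labels, cross-linked chromatin was sheared, precipitated with an antibody to Msl1 or Nsl1, and made into libraries with NEXTFlex (Msl1) or NEBNext (Nsl1) reagents. The authors processed reads with CASAVA 1.8.2 and aligned them to mm9 with Bowtie 0.12.7, keeping unique alignments. The deposited files list read positions and strands, and the score column the authors deposited is 255 on every line and was not used. No read passed a chromosome end of the NCBIM37 genome.

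From these files the mitochondrial reads were set aside (34756 for Msl1 and 12333 for Nsl1), and 1 read was kept per position and strand. This left 19483142 reads in the Msl1 library (81.7% of 23853761 nuclear reads) and 24883001 in the Nsl1 library (95.4% of 26071765). Reads were moved toward the fragment centre by 105 bases (Msl1) or 65 bases (Nsl1), taken from the strand cross-correlation. Genes came from the GENCODE M1 annotation of mm9. The TSS was the start used by most protein-coding transcripts of a gene, and ties went to the farthest upstream. The 177 autosomal genes that lacked local reads in 1 or both libraries were left out of the background. Counting and intervals used scipy 1.17.1 and numpy 2.4.6 under Python 3.11.15, with tables handled by pandas 2.3.3 and figures drawn with matplotlib 3.10.9. Ratios of read counts have conditional binomial intervals and shares have Clopper-Pearson intervals, and counting was tested on simulated data.

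The members, the partner list, the motifs and the modules were chosen with earlier results of these data known. In each group the text names the 2 members with the highest Msl1 ratio, the 2 with the highest Nsl1 ratio and the lowest sum of ratios, overall the 3 highest and 3 lowest values of Msl1 over Nsl1, and Polr1a, Polr1b, Polr2a, Polr2b, Polr3a, Polr3b, Gtf2b and Med1. Other genes were named after their values were seen. No 500-base windows of members overlapped. Alternatives changed the read filter, windows, local level, TSS, shift, low-read filter and fold.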

Additional observations from a re-analysis of the deposited data

How the results depend on the processing

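Over 9 summary values and 12 settings, 53 alternatives were computed and 36 stayed within the spread set for the reported value: its 95% interval, or 1.5 times for a count. For a median that interval came from the ranked values of the members. It reflects spread among genes, which are not replicates, and not counting error. With 250 bases on each side the Nsl1 count at 4 or more was 64 (background 20.6%), and at a fold of 3 the Nsl1 count was 70 (23.9%), both within 1.5 times of 50. With a window of 250 bases on each side of the TSS the median ratio was 2.36 for Msl1 and 5.33 for Nsl1, and with 1000 bases it was 2.41 and 2.80, with 12 members at 4 or more for Msl1 (5.50% of the autosomal genes) and 25 for Nsl1 (6.53%). At a fold of 3 the Msl1 count was 39 (background 23.1%). At a fold of 5 it was 8 (3.44%) and the Nsl1 count was 32 (9.95%). Measured from 1000 to 2000 bases, Msl1 had a downstream ratio of 0.620 and Nsl1 a value of 0.226, and with all reads kept the Nsl1 value was 0.236. In the 56 members of at least 5 kb with no TSS of another gene within 2 kb, Msl1 had a downstream ratio of 0.794 and Nsl1 a value of 0.234, with the share of TSS reads inside the gene at 73.4% and 51.0%. Msl1 over Nsl1 had a median of 0.728 within 500 bases, so that its side of 1 depends on the window: the Nsl1 reads are concentrated at the TSS. Windows and folds change these values by construction. For the others the cause was not tested. For the counts at a fold, the members' share was above that of all autosomal genes in every setting run, and the alternatives were not set against CpG-dense promoters alone. No paired analysis was possible because there was 1 library per antibody. Depth limits what can be said of single genes: with a median of 35 Msl1 reads at a TSS, moderate differences between genes are within the counting intervals.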

Other observations

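Other housekeeping groups were read in the same way. The 39 proteasome subunit genes had a median Nsl1 ratio of 4.78, with 24 at 4 or more (61.5%), and a median Msl1 ratio of 2.87. The 77 genes of mitochondrial ribosomal proteins had a median Nsl1 ratio of 5.96, with 55 at 4 or more (71.4%), and a median Msl1 ratio of 3.10. Both medians for Nsl1 were above the 4.07 of the polymerase and factor genes, so the level described for the transcription machinery was also found in groups of unrelated function. The pooled Nsl1 downstream ratios were 0.286 for the proteasome genes (0.266 to 0.307) and 0.194 for the mitochondrial ribosomal protein genes (0.185 to 0.204), against 0.251 for the members. The mitochondrial group carried more of its Nsl1 reads inside the gene, 60.4% (59.2 to 61.6), than the members, 49.4% (48.1 to 50.6).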
